A study of Mus musculus with 32 samples.

Results

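The snoRNA host genes are long noncoding genes that carry small nucleolar RNAs (snoRNAs) inside their introns. The set was fixed by name as Gas5, Snhg1, Snhg3, Snhg5, Snhg6, Snhg8, Snhg12, Snhg15 and Snhg20, and a member was a row of the deposited count table whose Ensembl identifier maps to 1 of these 9 symbols. Of the 9, 7 had a row among the 41687 rows of the table. Snhg1 (ENSMUSG00000108414) and Snhg8 (ENSMUSG00000104960) were not analysed here.

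RNA was sequenced from the lungs of adult female C57b/6 mice aged 8 to 18 weeks, either wild type (WT) or Bmal1 knockout (KO). Bmal1 pairs with CLOCK to switch on genes of the circadian clock through E-box sequences, and the question was how much the genotype comparison depends on the way ribosomal RNA is handled before sequencing. RiboZero libraries (ribosomal RNA pulled down) and PolyA libraries (polyadenylated RNA selected) were made for 6 WT and 6 KO mice each. NoSelect libraries, with neither step, were made for 4 mice of each genotype, numbered 3 to 6, from 6 combined preparations a mouse, which gave 32 libraries of 12 mice. The labels do not give the KO allele, the promoter of any Cre, or the time of day of collection. Input was 200 ng of RNA for RiboZero and PolyA and 15 ng for NoSelect, so preparation and input cannot be told apart between NoSelect and the others.

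In a host gene of this kind the exons are spliced into a noncoding RNA, and the excised introns are trimmed to snoRNAs. C/D box snoRNAs guide 2′-O-methylation and H/ACA box snoRNAs guide pseudouridylation of ribosomal RNA, while scaRNAs act on spliceosomal RNAs. Several host transcripts begin with a pyrimidine tract, the 5′ TOP motif of translation genes. Their spliced RNAs hold short open reading frames and are known targets of nonsense-mediated decay, which degrades RNAs whose stop codon lies early. Gas5, named for its rise in growth-arrested cells, is the best known of them.

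Total counts ran from 11638594 to 25801237 per RiboZero library, from 29924325 to 41548830 per PolyA library and from 74979802 to 115059756 per NoSelect library. The targeted gene Arntl, the symbol of Bmal1, was lower in KO in all 3 preparations, at log2 -0.83 (SE 0.07, adjusted p = 2.46e-05) for RiboZero, -0.27 (SE 0.06, 0.0262) for PolyA and -0.69 (SE 0.05, 0.000451) for NoSelect, by edgeR. The NoSelect library of KO mouse 6 is labelled liver. All 10 lung markers were present in it, at a summed 24073 CPM (counts scaled to library size) against 16336 to 51841 in the other 31 libraries, and 12 liver markers summed to 1.07 CPM against 0.308 to 2.67, with 6 of the 12 at 0, so the data go against that label. Results that rest on it are given with and without it where they differ.

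The members occupy short loci of the GRCm38 genome, here with GENCODE M21 models. Gas5 spans chr1:161034422-161038539 on the plus strand with up to 12 exons and 25 annotated transcripts, of which 20 are retained-intron forms. Snhg6 lies at chr1:9941959-9944118 (minus), Snhg12 at chr4:132308623-132311024 (plus) and Snhg3 at chr4:132348014-132353686 (minus), so that Snhg12 and Snhg3 are near neighbours on opposite strands. Snhg5 lies at chr9:88521050-88522929 (minus), Snhg15 at chr11:6525591-6528760 (minus) and Snhg20 at chr11:117076008-117078955 (plus). Inside the spans of the 9 named genes the annotation places 31 snoRNA or scaRNA genes on the same strand, and 29 of these have a row of their own. Gas5 holds 10 of them, all under 100 bases.

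The small RNAs divide by length, and the sequences of GENCODE M21 show both classes. Searched as TGATGA within the first bases and CTGA near the 3′ end (box C and box D), 17 of the 31 held both boxes. Of the rest, searched as a last ACA with 3 bases after it, 8 held the H/ACA end, and 6 held neither in this exact spelling. The following are a short C/D box RNA of Gas5 (chr1:161035394-161035473, plus), the C/D pair of Snhg5, the long C/D box RNA of Snhg1 (chr19:8725866-8725991, plus) and an H/ACA RNA of Snhg3 (chr4:132352775-132352979, minus), with the boxes in capitals where found.
Gm26224: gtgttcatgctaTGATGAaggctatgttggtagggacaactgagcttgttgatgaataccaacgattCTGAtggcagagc
Snord50a: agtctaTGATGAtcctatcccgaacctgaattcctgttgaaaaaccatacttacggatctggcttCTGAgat
Snord50b: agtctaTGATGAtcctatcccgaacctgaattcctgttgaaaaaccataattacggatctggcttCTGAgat
Snord22: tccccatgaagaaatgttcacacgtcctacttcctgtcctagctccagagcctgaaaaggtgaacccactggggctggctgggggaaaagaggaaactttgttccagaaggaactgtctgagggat
Snora73a: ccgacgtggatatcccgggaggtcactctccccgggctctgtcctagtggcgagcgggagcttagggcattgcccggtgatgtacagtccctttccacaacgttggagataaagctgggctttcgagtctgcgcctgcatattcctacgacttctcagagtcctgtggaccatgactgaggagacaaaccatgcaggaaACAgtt
Snord50a and Snord50b differ at 1 of 72 bases. Snora73a and its neighbour Snora73b differ at 7 of 205, so reads could be split between that pair and their separate values are uncertain.

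Transcript starts were read from RefSeq (GRCm38.p6), which gave 9 promoters for 8 of the 9 named genes. A start base C followed by 4 pyrimidines, searched on the strand of the gene, was found at 2 of the 9 starts, against 2.51% of 32851 promoters. Within 10 bases of the start, such a run began in 5 of the 9, against 30.7% of all. These windows cover 10 bases before to 20 bases from the start, with the annotated start base in capitals, and are shown for the 5 starts with such a run, the 2 with the motif first. Gas5 has a second start in the table, without a run.
Gas5: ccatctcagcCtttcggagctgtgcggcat
Snhg8: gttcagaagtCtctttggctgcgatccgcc
Snhg3: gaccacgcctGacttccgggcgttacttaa
Snhg5: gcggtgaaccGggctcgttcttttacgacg
Snhg12: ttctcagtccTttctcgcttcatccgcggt
The E-box CACGTG, the same on both strands, was found in 1 of the 9 promoters, that of Snhg15, against 7.15% of all promoters. It begins at position 12 after the start. The 300 bases from 250 before the start (chr11:6528711-6529010, minus strand) are given because Snhg15 has the largest fitted genotype difference of the 6 members other than Snhg5 in PolyA libraries, with the E-box in capitals.
Snhg15: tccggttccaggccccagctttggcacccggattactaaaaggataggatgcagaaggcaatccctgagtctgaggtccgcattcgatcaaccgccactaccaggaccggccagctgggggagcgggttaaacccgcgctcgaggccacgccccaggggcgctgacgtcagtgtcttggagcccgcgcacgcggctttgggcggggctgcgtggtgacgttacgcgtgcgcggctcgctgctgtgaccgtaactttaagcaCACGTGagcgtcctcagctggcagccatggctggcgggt
A match of these letters is a description of the window and no evidence of binding.

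Gas5 was by far the most abundant member, as a level per kilobase of mean annotated transcript length. Levels are on the CPM scale of the trimmed mean of M-values (TMM), which scales each library by a single factor. Gas5 stood at 98.0 ± 5.12 CPM per kb in PolyA (SD, n = 12), 70.6 ± 3.61 in RiboZero (SD, n = 12) and 56.3 ± 3.41 in NoSelect (SD, n = 8). Snhg20 was second in each preparation, at 19.8 ± 2.85, 9.78 ± 1.29 and 10.1 ± 1.14 CPM per kb in the same order. Snhg3, Snhg5, Snhg6 and Snhg12 lay between 5.27 and 10.9 CPM per kb, and neighbours in this order lay mostly within 1 SD of each other. Snhg15 was lowest, at 5.56 ± 1.00, 3.46 ± 0.619 and 3.04 ± 0.484. The 7 members together took a mean 0.0184% of PolyA counts, 0.0101% of RiboZero counts and 0.00242% of NoSelect counts, and Gas5 made up 61.5% to 65.8% of those counts.

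**Figure D1:**
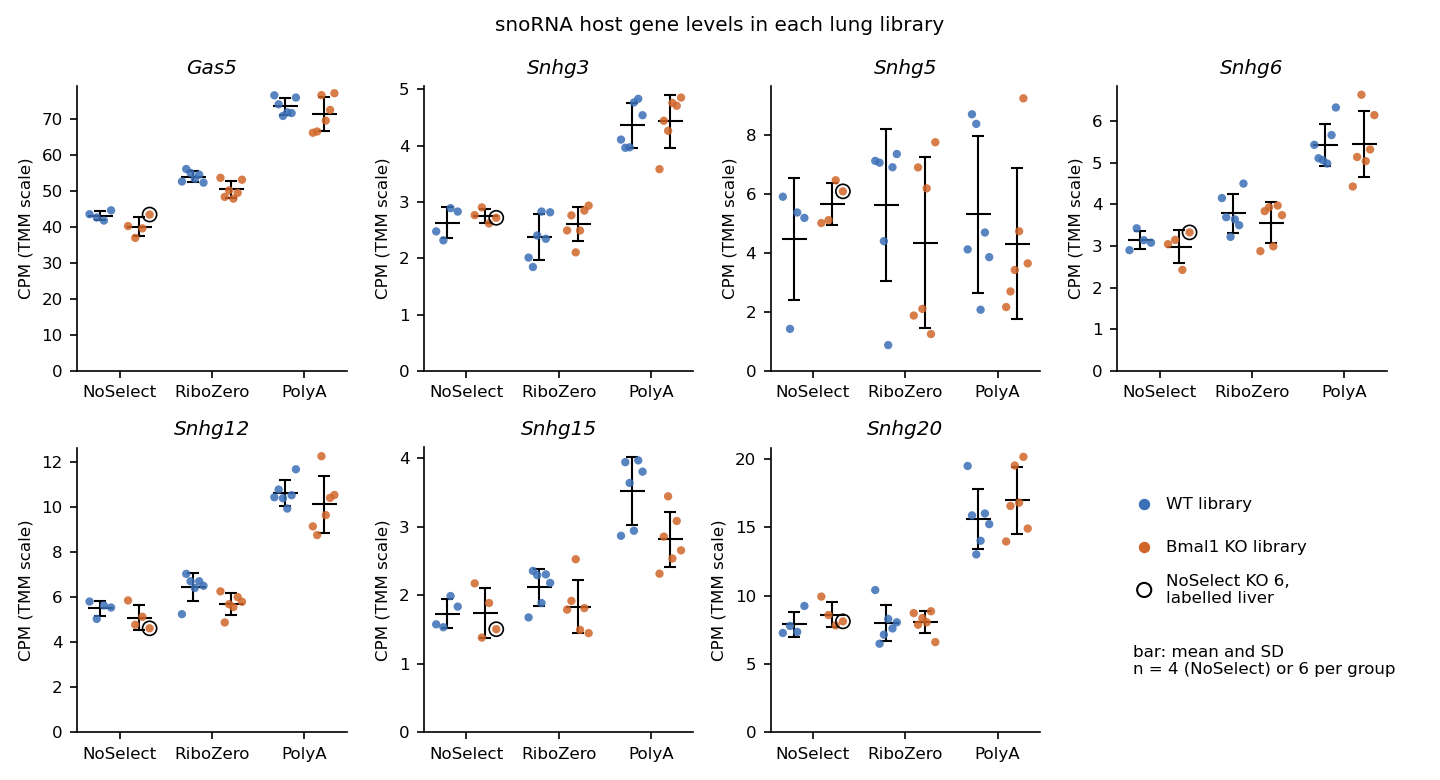
CPM on the TMM scale of each of the 7 members (panels, each y axis from 0) in all 32 libraries, by preparation along the x axis and by genotype in colour, with the mean and SD of each group. The 12 PolyA libraries of Gas5 sit at 66.3 CPM or more and all 8 NoSelect libraries at 44.7 or less, while WT and KO points overlap in every panel and Snhg5 scatters widely within groups.

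The members were mostly highest in PolyA libraries. At matched scale, 6 of the 7 members had higher levels in PolyA than in NoSelect libraries, by log2 fold changes from 0.72 to 0.99 with edgeR adjusted p of 4.5e-07 or lower, where 42.8% of all rows tested rose by that rule. None reached the 2-fold limit set for a call between preparations, which 25.1% of rows did in either direction, so the count of members called was 0 of 7. NoSelect libraries came from 8 of the 12 mice.

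Gas5 levels in NoSelect were 43.6, 42.7, 41.9 and 44.7 CPM in WT mice 3 to 6 and 40.3, 37.0, 39.7 and 43.5 CPM in KO mice 3 to 6. RiboZero libraries gave a lowest, median and highest level of 52.4, 54.1 and 56.2 CPM in WT and of 48.0, 49.9 and 53.8 CPM in KO. PolyA libraries gave 71.0, 73.1 and 76.7 CPM in WT and 66.3, 71.2 and 77.3 CPM in KO. The 3 preparations did not overlap for Gas5, and in each of the 8 mice with all 3 libraries PolyA was above RiboZero and RiboZero above NoSelect. In all 12 mice PolyA was above RiboZero. The fitted log2 differences were 0.81 (SE 0.04) for PolyA over NoSelect, 0.44 (SE 0.03) for PolyA over RiboZero and 0.33 (SE 0.03) for RiboZero over NoSelect, with edgeR adjusted p of 1.92e-14, 1.05e-12 and 1.62e-08.

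Snhg20, host of the scaRNA gene Gm26083, had the largest PolyA differences. Its NoSelect levels were 7.27, 7.78, 7.34 and 9.24 CPM in WT and 9.93, 8.58, 7.82 and 8.11 CPM in KO mice 3 to 6. The lowest, median and highest RiboZero levels were 6.48, 7.82 and 10.4 CPM in WT and 6.60, 8.20 and 8.85 CPM in KO. PolyA levels ran from 13.0 through 15.5 to 19.5 CPM in WT and from 14.0 through 16.7 to 20.1 CPM in KO. All 12 PolyA libraries were thus above all 20 others. The log2 difference was 0.99 (SE 0.08) over NoSelect and 0.99 (SE 0.08) over RiboZero, just inside 2-fold, with edgeR adjusted p of 7.26e-10 and 2.58e-11. RiboZero and NoSelect differed by -0.04 (95% interval -0.21 to 0.13, edgeR adjusted p = 0.731).

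Snhg12, which carries 3 H/ACA RNAs and Snord99, was also highest in PolyA. NoSelect levels were 5.80, 5.03, 5.63 and 5.54 CPM in WT and 5.85, 4.77, 5.12 and 4.62 CPM in KO. Lowest, median and highest levels were 5.24, 6.60 and 7.03 CPM in RiboZero WT and 4.88, 5.74 and 6.25 CPM in RiboZero KO, against 9.92, 10.5 and 11.7 CPM in PolyA WT and 8.75, 10.0 and 12.2 CPM in PolyA KO. PolyA libraries did not overlap with either other preparation. The log2 difference was 0.98 (SE 0.06) over NoSelect and 0.74 (SE 0.06) over RiboZero, with edgeR adjusted p of 6.68e-12 and 1.52e-11.

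Snhg3, Snhg6 and Snhg15 followed at lower counts. Snhg3 stood at 2.69 CPM in NoSelect (mean, SD 0.207, n = 8), 2.49 CPM in RiboZero (SD 0.362, n = 12) and 4.401 CPM in PolyA (SD 0.418, n = 12), and PolyA libraries overlapped with neither. Its log2 differences were 0.72 (SE 0.07) over NoSelect and 0.79 (SE 0.08) over RiboZero. Snhg6, the host of Snord87, stood at 3.06 (SD 0.304), 3.67 (SD 0.471) and 5.44 CPM (SD 0.640) in the same order, and its log2 differences were 0.84 (SE 0.08) and 0.54 (SE 0.08). Snhg15, the host of Snora9, had log2 differences of 0.87 (SE 0.11) and 0.65 (SE 0.10), with PolyA above RiboZero in 12 of 12 mice and above NoSelect in 8 of 8. All of these had edgeR adjusted p of 8.88e-07 or lower.

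The members differed in how far their libraries overlapped. PolyA libraries lay above all NoSelect libraries for 6 of 7 members, where 23.4% of rows did, and above all RiboZero libraries for 4 of 7 (Gas5, Snhg3, Snhg12 and Snhg20), where 21.3% did. RiboZero libraries lay above all NoSelect libraries for Gas5 alone, where 4.66% of rows did. Against RiboZero, 6 of 7 members rose in PolyA by adjusted p alone (42.5% of rows) and 0 of 7 were called at 2-fold (23.6% in either direction). The 2 PolyA comparisons share the PolyA libraries.

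RiboZero and NoSelect libraries were closer. Gas5, Snhg6 and Snhg12 rose in RiboZero with an adjusted p under 0.05, where 24.3% of rows did, by log2 differences of 0.33, 0.26 (SE 0.08, adjusted p = 0.0156) and 0.19 (SE 0.06, adjusted p = 0.0151) by edgeR. Those of Snhg6 and Snhg12 passed neither in WT libraries alone (adjusted p of 0.101 and 0.0983) nor in KO libraries alone (0.226 and 0.267). No member was called at 2-fold, where 4.3% of rows were.

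**Figure D2:**
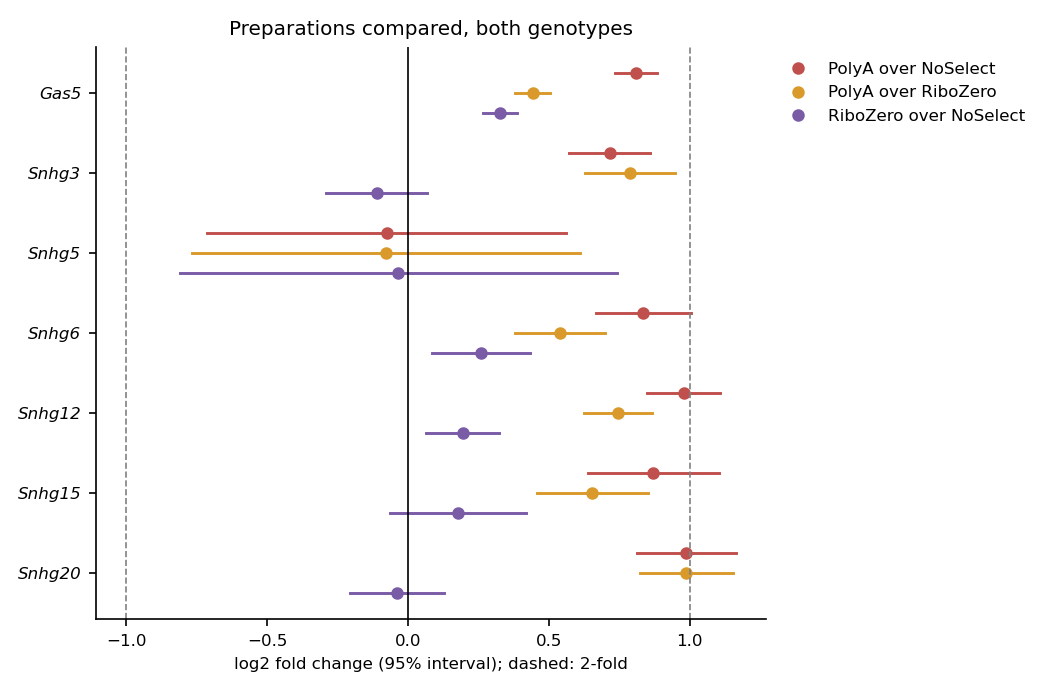
Fitted log2 fold changes between preparations (x axis, points with 95% intervals) for the 7 members, over libraries of both genotypes, with dashed lines at 2-fold. The PolyA differences of 6 members lie between 0.44 and 0.99, and those of Snhg5 have intervals that span 0.

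These directions depend on how libraries are put on a common scale. TMM left the median of all rows at 0.10, 0.03 and 0.07 log2 for PolyA over NoSelect, RiboZero over NoSelect and PolyA over RiboZero. With total counts in place of TMM these medians moved to 2.23, 1.86 and 0.40, and the calls over all rows for PolyA against NoSelect went from 1843 higher and 2776 lower to 15922 higher and 673 lower. On that scale 7 of 7 members were called higher in PolyA than in NoSelect, and Snhg3 and Snhg20 changed from log2 differences of -0.11 and -0.04 to 1.72 and 1.80 for RiboZero over NoSelect. The 6 members kept a higher level in PolyA than in NoSelect and RiboZero under all 14 alternatives run. The markers of heart muscle, a tissue that lines pulmonary veins, also moved: 3 of 5 were called higher in PolyA than in NoSelect, where 10.0% of rows were. Their summed levels were 68.7 to 602.6 CPM in PolyA and 28.5 to 169.5 CPM in NoSelect libraries. Of the other markers tested, 1 of 10 of lung, 1 of 5 of liver, 0 of 5 of red blood cells and 0 of 5 of B and T cells were called higher. No heart muscle marker was at 0 in a whole group. The part of these markers in the members' differences was not tested.

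Snhg5 was the exception among the members. Its log2 level had a pooled SD of 0.79 within groups, while the other 6 members had 0.07 to 0.19. NoSelect levels were 5.92, 1.43, 5.38 and 5.196 CPM in WT and 5.02, 5.12, 6.47 and 6.10 CPM in KO mice 3 to 6. In RiboZero libraries the lowest, median and highest levels were 0.877, 6.99 and 7.36 CPM in WT and 1.25, 4.15 and 7.77 CPM in KO. In PolyA they were 2.08, 4.41 and 8.71 CPM in WT and 2.17, 3.54 and 9.26 CPM in KO. High and low libraries occurred in both genotypes and in all 3 preparations, and the same mouse could be high in one preparation and low in another: KO mouse 5 had 1.25 CPM in RiboZero and 9.26 CPM in PolyA.

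The low libraries of Snhg5 were those in which another row of the table held counts. That row, ENSMUST00000183030, carries a transcript identifier, has no symbol in the tables used here and is absent from GENCODE M21. It was listed at 0 in 17 of the 32 libraries and held 59 to 458 counts in the other 15. It was found after the values were seen, by searching 4721 rows for the one whose sum with Snhg5 had the smallest spread, so it is described and not tested. The sum had a within-group SD of 0.14 log2, or 0.175 of that of Snhg5 alone, and the best partner of each other member reached only 0.397 to 0.515. Salmon shares reads among transcripts that hold the same sequence, and 14.7% of the 31-base words of Snhg5 occur in other genes, among them 9330159M07Rik and 9430037G07Rik. What the row represents is not given in the sources used here.

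The sum of the pair averaged 9.33 CPM in PolyA, 7.01 CPM in RiboZero and 5.65 CPM in NoSelect libraries. PolyA libraries of the sum lay above all NoSelect and all RiboZero libraries, as 23.4% and 21.3% of rows did. The sum was higher in PolyA than in NoSelect in 8 of 8 mice. The row was chosen for the small spread of the sum within groups, which favours such separation, so this is no test. KO and WT means of the sum were 6.81 and 7.21 CPM in RiboZero, 9.38 and 9.28 CPM in PolyA, and 5.68 and 5.62 CPM in NoSelect. Snhg5 alone differed between preparations by -0.08 log2 for PolyA over NoSelect (95% interval -0.71 to 0.56), an interval that lies below the estimates of the other 6 members, and the difference from them was not tested.

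**Figure D3:**
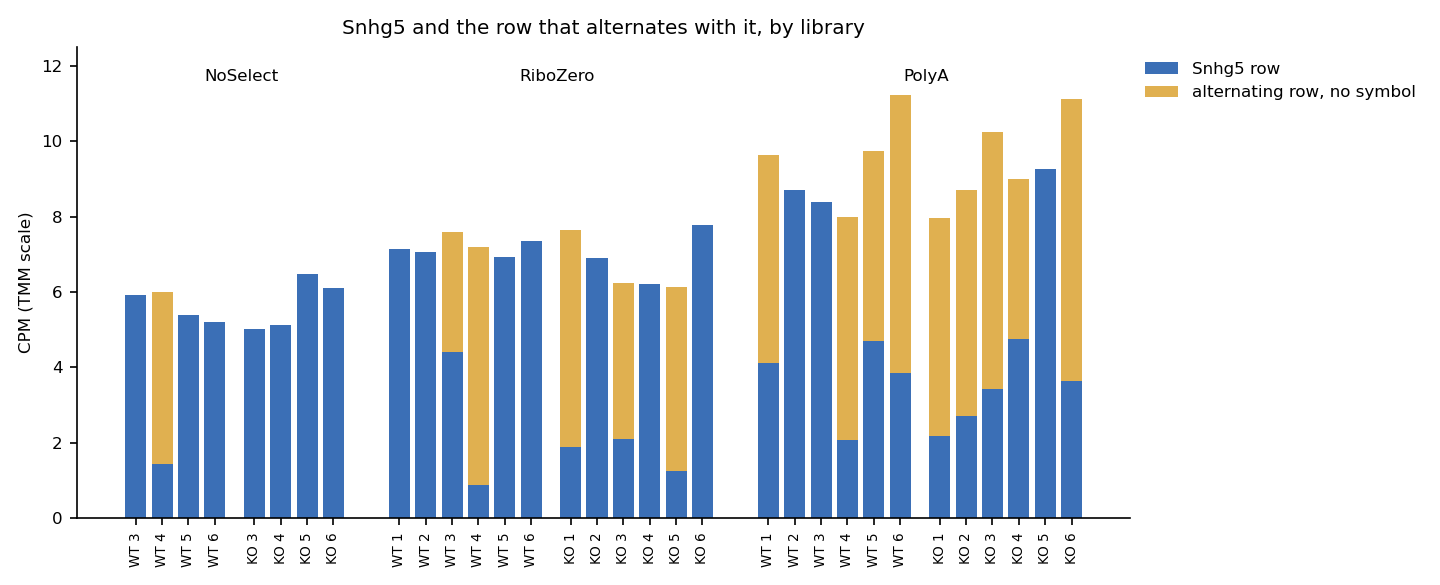
CPM on the TMM scale (y axis) of the Snhg5 row (blue) and of the row that alternates with it (yellow), stacked, for each of the 32 libraries along the x axis. The blue bars run from 0.877 to 9.26 CPM, while the summed bars of a preparation stay close together, the property by which the row was chosen. The lowest PolyA sum is at 7.96 CPM.

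Loss of Bmal1 left the members without a called change. In RiboZero libraries 0 of 7 members had an edgeR adjusted p under 0.05, where 3.46% of 16710 rows did, in PolyA 0 of 7 (4.03% of 17211 rows) and in NoSelect 0 of 7 (2.17% of 17124 rows). At an unadjusted p under 0.05 there were 1 (Gas5), 1 (Snhg15) and 0 of 7 members by edgeR, where 16.4%, 18.0% and 15.7% of all rows had one, and DESeq2 also called 0 in each. WT and KO libraries overlapped for all 7 members in each preparation, where 2.85%, 3.32% and 9.55% of rows did not overlap. The median log2 fold change of the members was -0.10, -0.07 and -0.01 in RiboZero, PolyA and NoSelect, while that of all rows was -1.2e-05, -0.0029 and 0.00053. Between genotypes in bulk tissue, fewer cells of a type and less RNA per cell cannot be told apart.

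Gas5 was lower in KO by a small amount that did not pass the adjusted test. In RiboZero the means were 54.1 ± 1.47 CPM in WT and 50.5 ± 2.44 CPM in KO (SD, n = 6 each), and all 6 KO libraries were below the WT median while the highest KO library, at 53.8 CPM, was above the lowest WT one. The log2 fold change was -0.10 (95% interval -0.18 to -0.02, edgeR adjusted p = 0.181). It was -0.07 (-0.18 to 0.03) in PolyA and -0.11 (-0.23 to 0.00) in NoSelect, with adjusted p of 0.433 and 0.331 by edgeR. These intervals of the main fits leave out a fall of Gas5 by more than 0.23 on the log2 scale. In NoSelect the genotypes overlapped only through KO mouse 6, the library labelled liver, at 43.5 CPM. KO mice 3 to 5 lay at 37.0 to 40.3 CPM and the lowest WT library at 41.9 CPM. How many of all rows separate without that library was not counted. Over all settings run, the NoSelect estimate of Gas5 ranged from -0.15 to -0.07, with 0 adjusted p under 0.05.

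Snhg15, whose promoter window holds the E-box, had its largest genotype difference in PolyA libraries. The lowest, median and highest levels there were 2.87, 3.72 and 3.97 CPM in WT and 2.32, 2.76 and 3.44 CPM in KO, and all 6 KO libraries were below the WT median. The log2 fold change was -0.36 (95% interval -0.63 to -0.09, edgeR adjusted p = 0.147). In RiboZero it was -0.22 (-0.54 to 0.10, adjusted p = 0.508) and in NoSelect -0.01 (-0.42 to 0.40, adjusted p = 0.992) by edgeR. NoSelect levels of Snhg15 were 1.58, 1.53, 1.99 and 1.84 CPM in WT and 2.17, 1.38, 1.89 and 1.51 CPM in KO mice 3 to 6, and without KO mouse 6 the NoSelect value turned to 0.06. Nr1d1, a direct clock target, changed in the same libraries by -4.86, -5.40 and -4.77 log2 in RiboZero, PolyA and NoSelect.

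Snhg12 had negative values in all 3 preparations, -0.18 (95% interval -0.36 to 0.01), -0.10 (-0.28 to 0.07) and -0.12 (-0.34 to 0.11) for RiboZero, PolyA and NoSelect, with edgeR adjusted p of 0.331, 0.547 and 0.623. Snhg20 had positive ones, 0.01 (-0.23 to 0.25), 0.09 (-0.15 to 0.33) and 0.12 (-0.13 to 0.36). Snhg3 gave 0.13, -0.01 and 0.06 and Snhg6 gave -0.09, -0.03 and -0.07, all with edgeR adjusted p of 0.677 or higher. For these 4 members the bounds of the intervals lay within 0.42 log2 of 0. Snhg5 gave -0.36 (-1.48 to 0.76), -0.33 (-1.19 to 0.53) and 0.33 (-0.49 to 1.15), so a change of 2-fold was not excluded by its row.

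**Figure D4:**
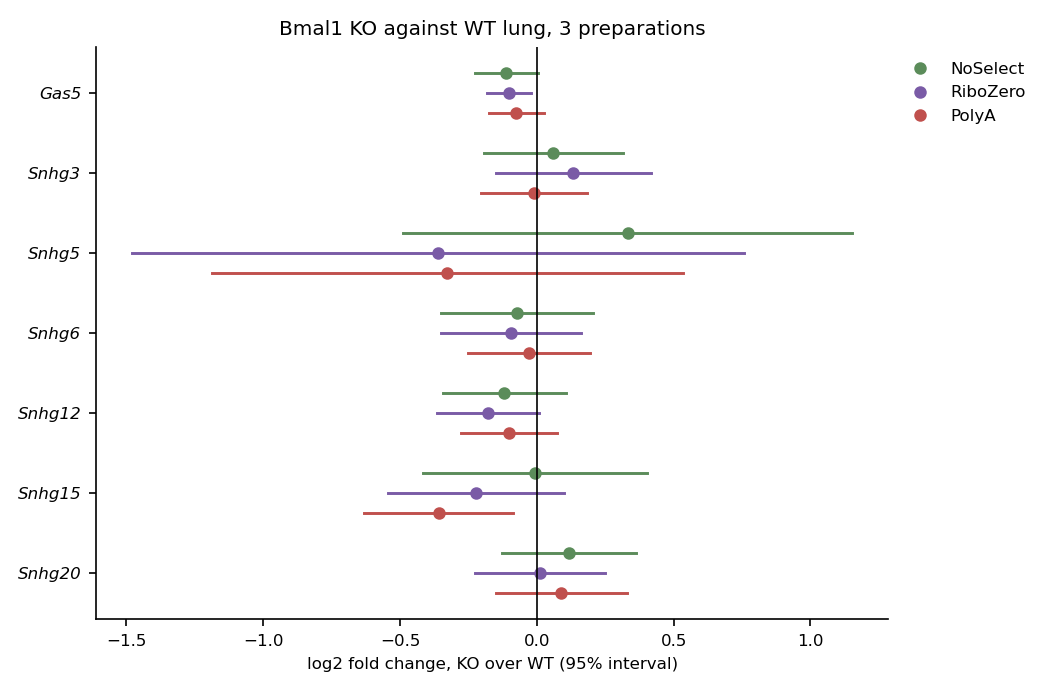
Fitted log2 fold changes of KO over WT (x axis, points with 95% intervals) for the 7 members in each of the 3 preparations. Gas5 has the narrowest intervals, near -0.10, and Snhg5 the widest, from -1.48 to 1.15.

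The genotype effect of a member was not found to differ between preparations. In the test of interaction 0 of 7 members passed in any of the 3 pairs of preparations, where 0.0% of rows did. The largest estimate outside Snhg5 was that of Snhg15, whose KO effect differed by -0.37 log2 between PolyA and NoSelect (95% interval -0.81 to 0.07). The summed level of the 7 members was 76.7 ± 2.72 CPM in KO and 82.4 ± 2.71 CPM in WT for RiboZero (SD, n = 6 each). It was 115.7 ± 10.0 and 118.5 ± 4.88 CPM for PolyA (SD, n = 6 each) and 67.0 ± 3.18 and 68.6 ± 3.40 CPM for NoSelect (SD, n = 4 each). The sum mixes genes of different length, holds the widely scattered Snhg5 row and was not tested. Without Snhg5 it was 72.3 ± 2.71 CPM in KO and 76.8 ± 0.502 CPM in WT for RiboZero (SD, n = 6 each). There KO lay at 75.9 CPM or less and WT at 76.2 or more. It was 111.4 ± 8.66 and 113.2 ± 4.77 CPM for PolyA (SD, n = 6 each) and 61.3 ± 3.12 and 64.1 ± 2.10 CPM for NoSelect (SD, n = 4 each), where the genotypes overlapped.

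Of the 29 hosted small RNA rows, the 9 longest had their highest median count in NoSelect libraries, and the others gave next to no counts. Such counts are not scaled for depth. NoSelect libraries also had the highest total counts, 74979802 to 115059756, against 11638594 to 25801237 for RiboZero. All 20 rows of 60 to 87 bases were at or near 0: 17 were at 0 in all 32 libraries and the highest held 6 counts, in a NoSelect library. These include the 9 rows inside Gas5, whose own row held 716 to 4760 counts per library, and Snord50a and Snord50b of Snhg5. The 9 rows of 126 to 205 bases all held counts, up to 8390. A count of 3 was taken as the floor of a library, for counting error only.

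Snora73b and Snora73a, the H/ACA pair of Snhg3, were the most abundant. In NoSelect libraries Snora73b held 4193 to 8390 counts (median 5392) and Snora73a 2270 to 4824 (median 2787). In RiboZero they held 997 to 3129 (median 1859) and 1295 to 3811 (median 2365), and in PolyA 5 to 24 (median 11.5) and 2 to 9 (median 6.0). Per count of Snhg3, Snora73b had 69.6 counts in NoSelect, 30.3 in RiboZero and 0.0533 in PolyA, while Snora73a had 38.0, 37.7 and 0.0229. For PolyA over NoSelect the log2 fold changes were -9.61 (SE 0.13) and -9.93 (SE 0.11), and for RiboZero over NoSelect -1.31 (SE 0.06) and -0.11 (SE 0.07, edgeR adjusted p = 0.178). These values are on the TMM scale. With total counts the median of all rows for RiboZero over NoSelect moves from 0.03 to 1.86 log2, and the direction for this pair depends on that choice.

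Snord22, the long C/D box RNA of Snhg1, held 1122 to 4106 counts in NoSelect (median 2817), 35 to 150 in RiboZero (median 103.0) and 0 in all 12 PolyA libraries. On the TMM scale it was at least 1547-fold lower in PolyA than in NoSelect, against the floor per library, and fell by 4.46 on the log2 scale (SE 0.23) in RiboZero. Gm26083, the scaRNA gene of Snhg20, held 746 to 1841 counts in NoSelect, up to 278 (median 219.5) in RiboZero and 0 in PolyA, at least 713.5-fold lower in PolyA and lower by -2.25 log2 (SE 0.12) in RiboZero. Snora44 of Snhg12 held 558 to 1544, 28 to 85 and at most 1 count in the same order, at least 582-fold lower in PolyA. All these folds and log2 values are on the TMM scale and would be smaller with total counts. The median of all rows for PolyA over NoSelect moves from 0.10 to 2.23 log2 with total counts. Per count of the host row, Gm26083 had 4.84 in NoSelect and 1.04 in RiboZero, and Snora44 had 6.20 and 0.365.

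Snora9 of Snhg15, Snora16a and Snora61 of Snhg12 and Snora24 of Snhg8 were low throughout, with medians of 65.0, 26.5, 8.5 and 24.5 counts in NoSelect and 8.0, 1.5, 0.0 and 1.0 in RiboZero. In PolyA the medians were 0.0, 1.0, 0.0 and 3.0. Tested rows of this class passed the filter on low counts mostly through the preparation where they are high. That was NoSelect, or RiboZero in the comparison of PolyA with RiboZero, so their number among the tested is no result. Of those tested, 8 of 8 were called lower in PolyA than in NoSelect (15.1% of rows), 5 of 6 lower in RiboZero than in NoSelect (2.56%) and 6 of 6 lower in PolyA than in RiboZero (16.6%). Between KO and WT only 5, 1 and 8 of the 29 rows were tested in RiboZero, PolyA and NoSelect. None of these was called by edgeR, with adjusted p of 0.391 or higher, where 3.46%, 4.03% and 2.17% of all rows were.

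**Figure D5:**
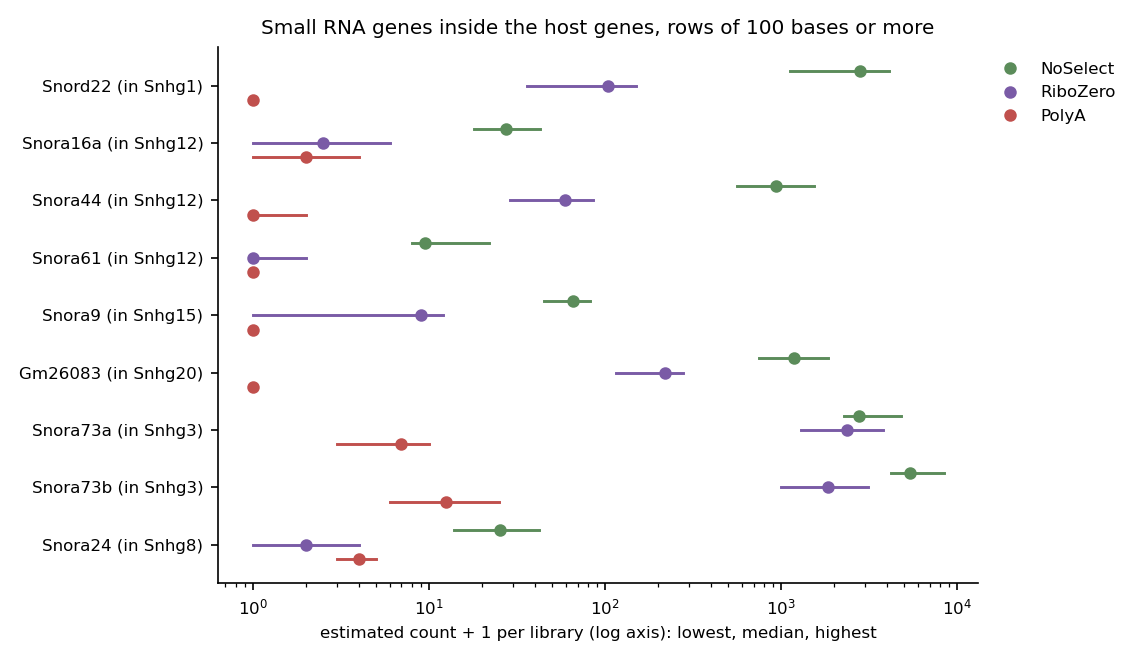
Estimated counts plus 1 per library (x axis, log scale) of the 9 hosted small RNA rows of 100 bases or more, with the median as a point and the lowest to highest library as a line, by preparation. Counts are not scaled for depth, which was highest in NoSelect. NoSelect has the highest median count in each row, with up to 8390 counts in a library. PolyA lies at or near 0 except for Snora73b and Snora73a, at up to 24 and 9.

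Parts of the host rows can hold snoRNA sequence. In GENCODE M21, 16 of the 25 Gas5 transcripts and 8 of the 10 Snhg12 transcripts contain a whole snoRNA, and 9.74% of the 31-base words of Gas5 and 13.9% of those of Snhg12 occur in hosted snoRNAs. For Snhg3 no annotated transcript holds a whole snoRNA, while 13.1% of its words occur in Snora73a or Snora73b and 7.94% in its neighbour Rcc1. Snhg6 shared none. Gas5 shared words with no gene other than its snoRNAs. How far shared reads moved the host values was not tested.

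Other genes of the same machinery were counted from fixed lists. Nop56 and Dkc1 are in both the list of coding hosts and that of core proteins. In PolyA over NoSelect 42.8% of all rows rose and 36.3% fell by adjusted p, and 10.0% rose past 2-fold. Of 4 other noncoding hosts with a row, 4 of 4 rose in PolyA over NoSelect by adjusted p, Snhg9 by 1.37, Snhg18 by 0.87, Snhg17 by 0.38 and Zfas1 by 0.32 log2. Of 10 coding snoRNA hosts, 9 rose and 0 fell, with 3 past 2-fold: Eef1b2, a translation elongation factor subunit, by 1.29 log2, Tpt1 by 1.08 and Eif4a1, a translation initiation helicase, by 1.03. Of the 8 snoRNP core proteins, 8 rose, with Nop10 (1.09) and Gar1 (1.04), both of the H/ACA particle, past 2-fold. Of 10 nonsense-mediated decay factors 4 rose and 6 fell, and Smg1, the kinase that acts on Upf1, fell by 1.83 on the log2 scale. The lists' median log2 differences were 0.62, 0.57, 0.93 and -0.42 in that order, beside 0.84 for the members and 0.10 for all rows.

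Between KO and WT the same lists held 1 call. Fbl (fibrillarin), the methyltransferase of the C/D particle, was lower in PolyA libraries by -0.22 log2 (SE 0.05, edgeR adjusted p = 0.0382), where 4.03% of all rows were called. The other 7 snoRNP core proteins and the noncoding hosts, coding hosts and decay factors had 0 calls in each preparation, and at an unadjusted p under 0.05 the core proteins gave 1, 1 and 1 and the decay factors 0, 3 and 1 in RiboZero, PolyA and NoSelect, of 8 and 10 genes, against the same 16.4%, 18.0% and 15.7% of all rows.

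By likeness of pattern over all 32 libraries, no member was nearest to another member. The measure was the root mean square difference of centred log2 CPM among 13080 rows. The nearest rows were Ptma for Gas5 (0.0723), Arpc3 for Snhg12 (0.113), Ybx1 for Snhg6 (0.132), Kyat1 for Snhg3 (0.137), Ppox for Snhg20 (0.141), Tspyl2 for Snhg15 (0.196) and Igdcc4 for Snhg5 (0.752). For Snhg15 the second nearest row was Snhg12, the only case in which a member ranked in the first 10. The points share libraries, mice and depth, and the measure is a description.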

How the data were processed

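Values are estimated counts per gene that the authors deposited in 1 table for 32 libraries. Salmon 1.4.0, UMI-tools 1.1.1 and the build GRCm38 are named per the submitters' processing notes, and no role or order is given there. Of the values, 12.8% were not whole, and all were rounded. Columns were matched to libraries by name, with 0 left unused. The members and lists were chosen with earlier results of these data known.

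Tests used edgeR 4.0.16 in R 4.3.3 (TMM, filterByExpr, glmQLFit, glmQLFTest, Benjamini-Hochberg over all rows tested). KO was compared with WT within a preparation. Preparations were compared with genotype as covariate, and a call also needed an absolute log2 fold change of 1. Levels are CPM with TMM over all libraries. The fits were tested on simulated counts in which 200 rows differed by 2 on the log2 scale, and recovered 100% of these for KO against WT in PolyA (17344 rows), 99.5% in NoSelect (17227 rows), 100% for PolyA against NoSelect (17530 rows) and 99% for the interaction of those preparations (17461 rows). Unchanged rows made up 5.66%, 4.78%, 4.76% and 4.35% of the simulated calls in that order. The simulated rows shared a single spread, with no difference of composition between preparations. Recovery at this size does not show the power for changes as small as the members' genotype estimates. Gene models and snoRNAs come from GENCODE M21, promoters from RefSeq.

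Each member was named in every comparison, with its nearest row by likeness, the snoRNA genes inside it and the fixed lists. The clock, lung, liver, heart, red blood cell and lymphocyte markers served as checks. The summed level is given with no p. Libraries of one mouse are paired across preparations, since the labels number the mice and their deviations correlated at 0.512 to 0.778 over 14367 rows. Equal numbers in WT and KO are different animals. Alternatives were DESeq2 1.42.0, other scalings, filters, row removals, blocks and left-out libraries. The small sample limits precision, and p-values of KO against WT measure the spread between these mice. The main fits between preparations and of the interaction had no mouse term. They treat libraries of one mouse as independent, so their p-values and SEs do not measure the spread between mice. The mouse block was run as an alternative only.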

Additional observations from a re-analysis of the deposited data

Results flagged for a closer look

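Of 42 groups of a member, a preparation and a genotype, 3 held a library whose gap to its nearest neighbour was large for the range of the group, and chance gives about 1 in 20 groups. Snhg5 in NoSelect WT mouse 4 was low, at 1.43 CPM against 5.196 to 5.92 CPM in the other 3 libraries. Snhg5 in PolyA KO mouse 5 was high, at 9.26 CPM against 2.17 to 4.74 CPM in the other 5. Both Snhg5 libraries follow the alternating row, which held 128 counts in the first and 0 in the second. Snhg12 in RiboZero WT mouse 1 was low, at 5.24 CPM against 6.41 to 7.03 CPM in the other 5 libraries.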

How the results depend on the processing

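The count of members called between KO and WT was 0 under every alternative run, and so was that of the interactions. The replicate block left KO calls at 0 of 7. For PolyA over NoSelect, 0 members were called in the main analysis, 7 with total counts, 6 with total counts after removal of Lars2, mitochondrial, rRNA and Gm42418 rows, 2 with no filter and 1 with the mouse as replicate block. Over all rows these settings called 4619 of 18372, 16595 of 18372, 6249 of 18762, 7039 of 28624 and 4529 of 18372. For PolyA over RiboZero 3 members were called with total counts, 3 with total counts after the same removal and 1 with no filter. There was 1 in mice 3 to 6 alone and 1 in KO libraries alone. All rows called were 5566 of 18164, 5556 of 18141, 6552 of 28597, 4337 of 18146 and 3837 of 17365 in that order. For RiboZero over NoSelect total counts gave 7 called and 7 of 7 with an adjusted p under 0.05, while WT alone and KO alone each left 1, Gas5. With total counts 16786 of all 17502 rows were called higher and 17075 rose by adjusted p. Of 16792 rows, 2313 rose by adjusted p in WT alone and 2113 in KO alone. KO as a share of WT for the summed level was 97.7% in NoSelect and 90.4% by share of total count. The cause was not tested.

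Signs turned for several estimates, most of them near 0, while Snhg5 in PolyA (KO over WT) went from -0.33 to 0.12 in mice 3 to 6. Snhg3 in PolyA (KO over WT) became 0.0235 in the fit of all 32 libraries and 0.0032 in mice 3 to 6, and Snhg6 became 0.0057 and 0.0343. Leaving out single libraries gave Snhg20 in RiboZero -0.0445 to 0.0989, Snhg3 in PolyA -0.0304 to 0.0452, Snhg6 in PolyA -0.0870 to 0.033, Snhg6 in NoSelect -0.13 to 0.0113 and Snhg15 in NoSelect -0.13 to 0.0867. For PolyA over NoSelect Snhg5 became 2.06 with total counts, 0.21 in WT alone, 0.73 when summed with its alternating row and 0.24 with total counts after removal. For RiboZero over NoSelect it became 1.80, 0.30 and 0.31 for the first 3 of these, Snhg3 became 1.72 and Snhg20 1.80 with total counts, and Snhg20 0.00182 in WT alone. For PolyA over RiboZero Snhg5 became 0.26 with total counts, 0.0499 without KO mouse 6, 0.096 in mice 3 to 6, 0.38 when summed and 0.26 after removal. In the interactions, the replicate block turned Snhg20 (0.0982) and Snhg12 (0.0673) for PolyA against NoSelect and Snhg3 (-0.0644) and Snhg6 (0.0488) for RiboZero against NoSelect, DESeq2 turned Snhg12 (0.0337), and leaving out KO mouse 6 turned Snhg6 (0.016). Depth limits the precision of Snhg3, Snhg6 and Snhg15, at 30 to 108 counts per RiboZero library, and of Snhg5, at 26 to 193.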
